A study of Mus musculus with 12 samples.

Results

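The nuclear receptors other than the glucocorticoid and mineralocorticoid receptors were followed in sorted *Pomc*-eGFP cells of the mouse pituitary, labelled corticotrophs. They were followed through 4 weeks of dexamethasone (DEX) and the weeks after its withdrawal. The set was a list of 37 gene symbols, each found once among the 55304 genes of the deposited table, and 35 of the 37 passed the filter on low values that left 24736 genes for testing. The list was drawn up by gene name and not by a rule on measured values. Earlier results of these data were known when it was chosen. *Nr2e1* and *Hnf4a* were the members that did not pass.

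Male mice on a C57Bl6/J background that carried a *Pomc*-eGFP transgene, 8 weeks old at the start, received DEX at 2.5 microg/ml in the drinking water for 4 weeks or plain water throughout. By the methods of the study the start of DEX was staggered so that all mice were collected together at the end of the experiment, when 1 group was still on DEX, 1 group had been off it for 1 week and 1 group for 4 weeks, and the control group had had water only. Every group, controls included, carried the transgene, in which the *Pomc* promoter drives eGFP. By the methods of the study the intermediate and posterior lobes were removed by dissection. The eGFP positive cells of the pooled anterior pituitaries were then collected by FACS. Each group held 3 libraries, each from its own pool, with 3 pituitaries per pool by the series description (the methods of the study allow fewer), so that the spread given here is between pools and not between mice. The comparison asks which transcripts of these cells differ under a synthetic glucocorticoid and how far they return once it is removed.

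Nuclear receptors are transcription factors whose activity is set by small lipophilic ligands. Many of them, among them the receptors for retinoic acid (RAR), thyroid hormone (TR), vitamin D, oxysterols (LXR) and fatty acids (PPAR), bind DNA as a pair with a retinoid X receptor (RXR), recruit corepressors when empty and exchange them for coactivators when ligand arrives. In the pituitary, oestrogen receptor alpha is best known from lactotrophs and gonadotrophs, steroidogenic factor 1 (*Nr5a1*) from gonadotrophs, and thyroid hormone receptor beta from the feedback of thyroid hormone on thyrotrophs. Retinoic acid is known to lower *Pomc* expression in corticotroph tumour cells.

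The libraries held 7719894 to 12848078 reads on genes, and the deposited values, called normalised counts below, are CPM, read counts relative to a library total that the authors adjusted between libraries, in which 1 read was worth 0.0787 to 0.127. The corticotroph markers *Pomc*, *Tbx19*, *Crhr1* and *Avpr1b* were present in every library, but so were *Gh* at 67563 to 265851 and *Prl* at 31498 to 119783 normalised counts, the hormones of somatotrophs and lactotrophs. Mean *Pomc* was 61015 in control, 5708 under DEX, 159270 at 1 week and 59322 at 4 weeks. The 1-week pools ran from 43612 to 284740 for *Pomc*, overlapping the control pools at 34562 to 74260. Mean *Gh* was higher in each group, at 131548, 90366, 163773 and 211222. Receptor levels below are those of the sorted preparation and not of corticotrophs alone. *Pax7*, which marks melanotrophs, was at or under 3 reads in every library, and *Rxfp4*, another melanotroph marker, had no read. Of the other melanotroph markers used here, *Pcsk2* measured 38.3 to 130, *Drd2* 16.9 to 66.8 and *Oacyl* up to 20 normalised counts. Pool 3 of the 1-week group stood apart, with *Tbx19* at 39.5 and *Avpr1b* at 1.56 normalised counts. Pool 2 of that group also differed, with the highest *Pomc* of all libraries (284740) and the lowest sum of the members (635). Fewer cells of a type and less RNA per cell cannot be told apart in such bulk samples.

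The sorted preparations held transcripts of most of the family, at low levels. Of the 37 members, 28 had a mean above 1 normalised count over the 12 libraries, 19 had a mean above 10, and 12 were above 10 in every library. The 37 genes together summed to 635 to 833 normalised counts per library. At the other end *Nr2e1*, a receptor of neural stem cells, had no read in any library, which allows up to 0.236 to 0.382 normalised counts per library for counting error alone. *Hnf4a*, the hepatocyte factor, did not exceed 3 reads in any library, and *Nr2e3*, *Nr2f1*, *Nr5a2* and *Pparg* were at that floor in at least 1 group and reached at most 0.739, 0.778, 1.02 and 0.942 normalised counts.

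Scaled by the length of their exons, *Rxrg*, *Esr1*, *Nr1h2*, *Thra*, *Nr2f6* and *Thrb* led the family. *Rxrg*, the RXR isoform with the narrowest tissue range, averaged 15.6 ± 5.96 normalised counts per kilobase (SD, n = 12), *Esr1*, oestrogen receptor alpha, 12.9 ± 3.58, and *Nr1h2*, LXR beta, 12.5 ± 2.58. *Thra* and *Thrb*, the receptors of thyroid hormone, averaged 11 ± 4.71 and 9.03 ± 2.6 per kilobase, with *Nr2f6*, an orphan repressor, between them at 9.42 ± 4.71. These neighbours lay within 1 SD of each other, so their order is not resolved. *Nr2f6* also shares 54.4% of its exon length with *Ocel1* on the opposite strand, so its level and rank are uncertain. A second tier from *Rxrb* at 6.53 to *Rarg* at 1.15 per kilobase took the count above 1 per kilobase to 22 members. *Esr2*, oestrogen receptor beta, averaged 0.155 per kilobase, far under *Esr1*, and *Pparg* 0.103.

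**Figure D1:**
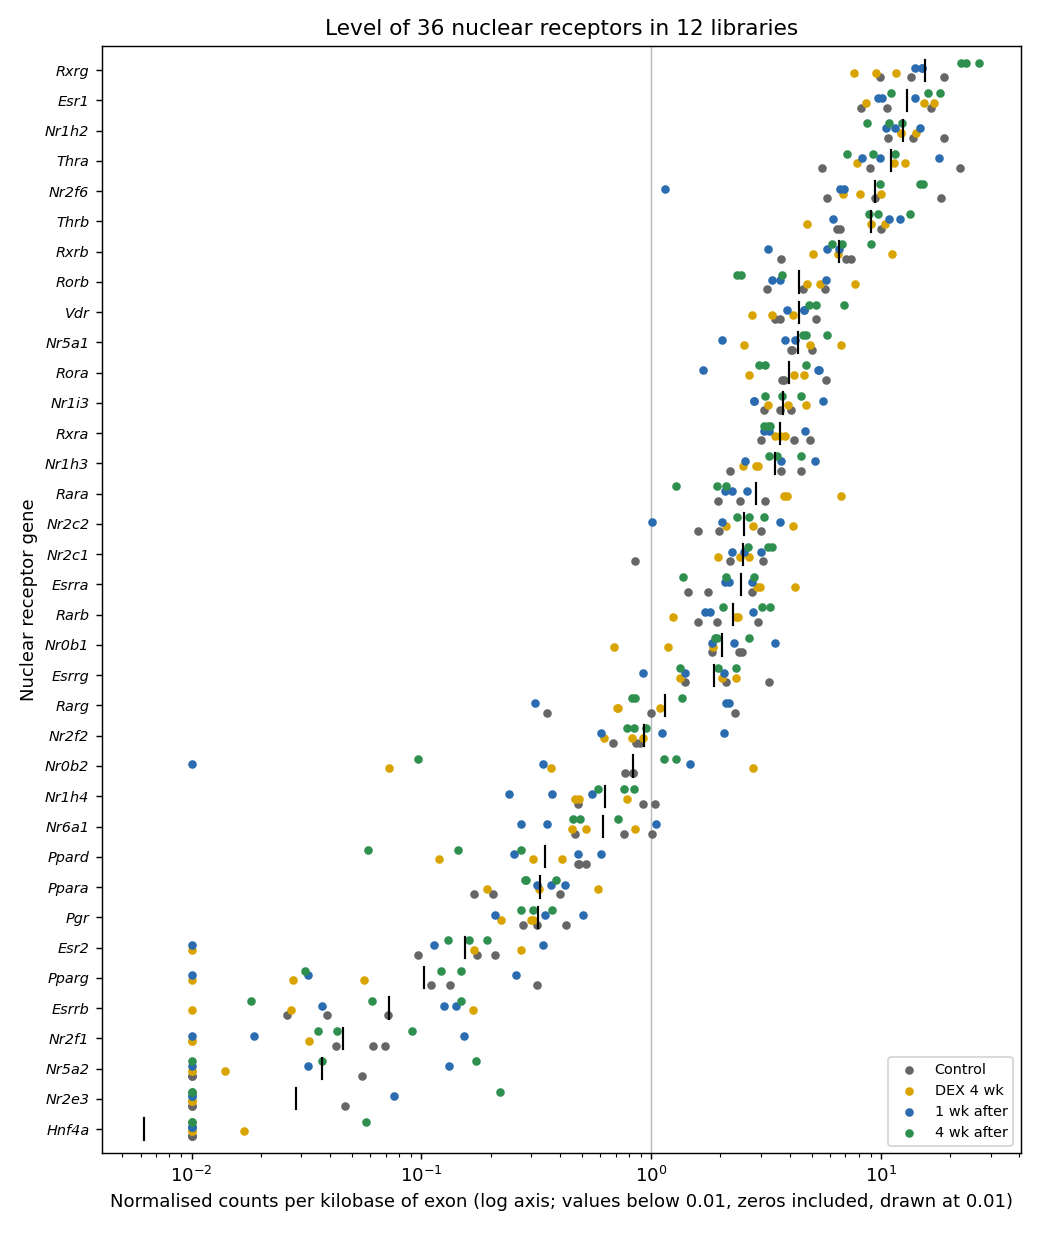
Normalised counts per kilobase of exon (log axis) of the 36 receptors with any read, 1 point per library coloured by group, black bars for the mean of 12 libraries. *Rxrg* has the highest mean at 15.6 per kilobase, its points run from DEX (left) to 4 weeks after withdrawal (right), and receptors under 1 per kilobase scatter widely.

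Of the 35 receptors tested, 1 passed the threshold, in 1 of the comparisons. In the limma F test over all 4 groups, 0 of 35 members reached an adjusted p under 0.05, against 0.315% of all genes tested, and 5 of 35 reached an unadjusted p under 0.05, against 9.21%. These were *Rxrg*, *Rara*, *Ppard*, *Rorb* and *Nr2f6*. The edgeR quasi-likelihood test on the recovered reads also called 0 members in this test, while DESeq2 called 2, *Rara* and *Rxrg*.

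DEX against control gave 0 of 35 members by adjusted p in limma, where 0.121% of all genes passed, and 0 by edgeR and DESeq2. At an unadjusted p under 0.05 there were 3 members, *Esrra* and *Rara* higher and *Pparg* lower under DEX, against 6.8% of all genes. The 3 DEX pools did not overlap the 3 control pools for 5 members (14.3%), against 12.8% of all genes. The median log2 difference of the 35 members was -0.20, beside -0.02 for all genes tested, with 11 members higher and 24 lower under DEX.

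The groups at 1 and 4 weeks after withdrawal gave 0 members each against control by adjusted p in limma, where 0.0% of all genes passed in either comparison, and 0 members by edgeR and DESeq2. Unadjusted p was under 0.05 for 1 member at 1 week (3.79% of all genes) and for 3 members at 4 weeks (6.35%), and the pools did not overlap for 2 members at 4 weeks, against 13.2% of all genes. The median log2 difference from control was -0.02 at 1 week and 0.06 at 4 weeks, beside 0.00 for all genes at both times.

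Against DEX, 1 week after withdrawal gave 0 members by adjusted p (0.433% of all genes) and 3 at an unadjusted p under 0.05 (10.8%). By edgeR and DESeq2 this count was also 0. At 4 weeks 1 member passed, *Rxrg*, against 0.873% of all genes, and 4 members had an unadjusted p under 0.05, against 9.94%. Pools did not overlap for 9 of 35 members (25.7%), 5 higher and 4 lower at 4 weeks, against 19.5% of all genes. DESeq2 called 3 members in this comparison, and edgeR 1. The comparison of 4 weeks with 1 week gave 0 members (0.0% of all genes) and 3 at an unadjusted p under 0.05 (5.47%), with 0 by edgeR and DESeq2. Comparisons with DEX share the DEX pools and those with control share the control pools.

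**Figure D2:**
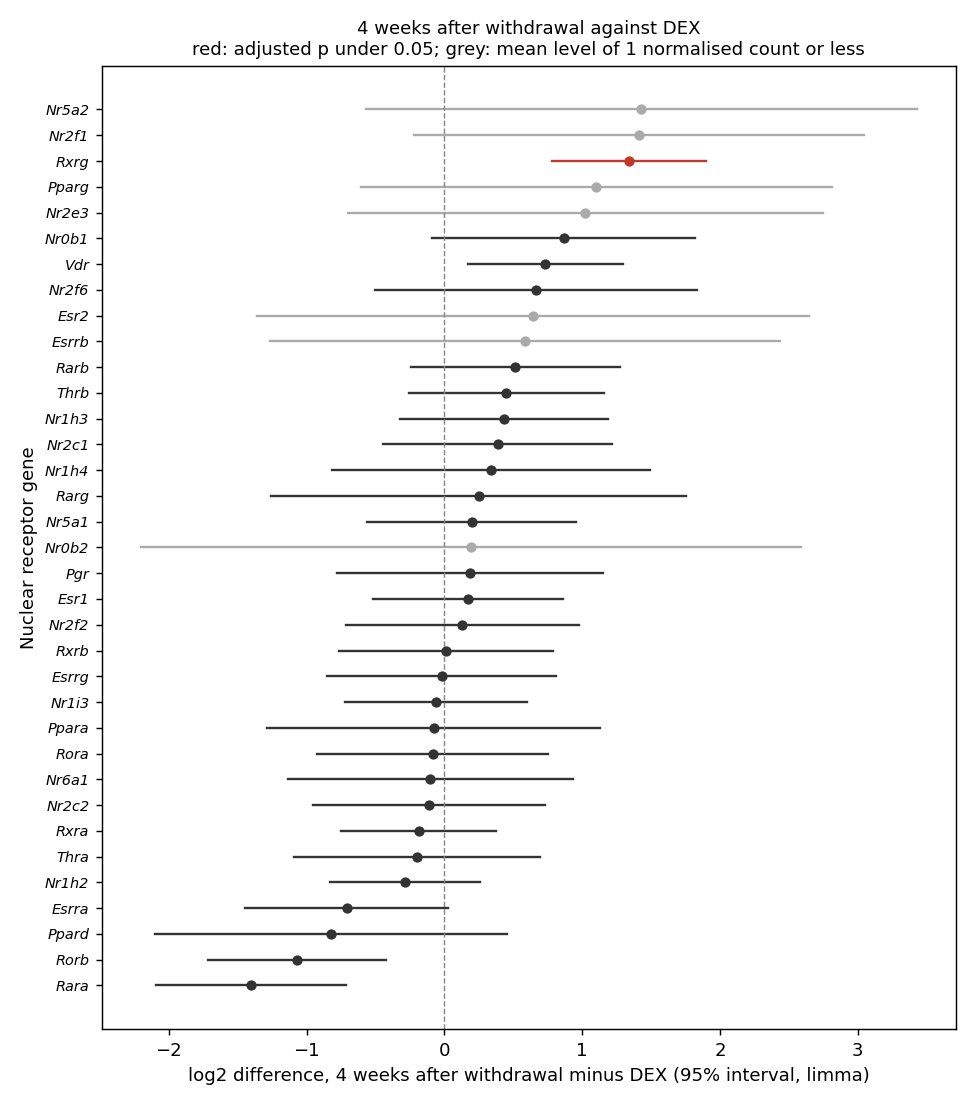
Log2 difference between 4 weeks after withdrawal and DEX for the 35 members tested, with 95% intervals from limma (3 pools per group). Only *Rxrg* (red, 1.34) has an adjusted p under 0.05, *Rara* and *Rorb* lie lowest at -1.40 and -1.07, and the intervals of the scarcest genes (grey) are the widest.

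Of the RXR partners, *Rxrg* rose between DEX and 4 weeks after withdrawal. The gene lies at chr1:167598384-167639623 on the plus strand (GRCm38). It measured 22.7, 31.1 and 43.2 normalised counts in the control pools, 17.6, 21.8 and 26.7 under DEX, 34.5, 32.1 and 34.4 at 1 week and 50.9, 53.5 and 61.2 at 4 weeks. All 3 pools at 4 weeks lay above all other libraries, and all 3 DEX pools lay below every pool at 1 week, while DEX and control overlapped. At 4 weeks *Rxrg* was 2.53-fold above DEX (log2 difference 1.34, SE 0.26, 95% interval 0.78 to 1.90, adjusted p = 0.0265 by limma). This call was kept in all 10 other settings (adjusted p from 0.000245 to 0.0311) but rested on every pool of the 2 groups. Without DEX pool 1, 2 or 3 the adjusted p was 0.152, 0.0785 or 0.0729, and without pool 1, 2 or 3 of the 4-week group 0.0858, 0.119 or 0.138, with a log2 difference of at least 1.19. Without 1-week pool 3, the library low in *Tbx19* and *Avpr1b*, the adjusted p was 0.0169 by limma.

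The same gene at 4 weeks was 1.76-fold above control (log2 difference 0.81, SE 0.26), which did not pass (limma, adjusted p = 0.619). That difference passed with array weights only (adjusted p = 0.0441). DEX against control gave -0.52 on the log2 scale, with a 95% interval from -1.08 to 0.04 (limma, adjusted p = 0.763), and at 1 week *Rxrg* was within 0.11 of control on that scale. *Rxra* and *Rxrb*, the broadly expressed isoforms, measured 16.4 to 26.7 and 12.8 to 44.1 normalised counts over the 12 libraries. Their log2 differences between 4 weeks and DEX were -0.19 (95% interval -0.75 to 0.37) for *Rxra* and 0.01 for *Rxrb*.

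The start regions of *Rxrg* are shown because it was the called member. RefSeq gives it 2 start sites with separate promoters, and each window runs from 250 bases before to 50 bases after the start on the plus strand of GRCm38.p6, with any AGGTCA, the core half-site to which nuclear receptors bind, in capitals.
Rxrg start 1, chr1:167598112-167598411: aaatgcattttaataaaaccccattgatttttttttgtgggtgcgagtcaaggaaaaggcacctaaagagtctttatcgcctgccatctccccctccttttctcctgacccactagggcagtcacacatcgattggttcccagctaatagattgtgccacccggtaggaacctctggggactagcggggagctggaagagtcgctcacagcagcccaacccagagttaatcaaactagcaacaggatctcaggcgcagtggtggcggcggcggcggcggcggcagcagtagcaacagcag
Rxrg start 2, chr1:167618015-167618314: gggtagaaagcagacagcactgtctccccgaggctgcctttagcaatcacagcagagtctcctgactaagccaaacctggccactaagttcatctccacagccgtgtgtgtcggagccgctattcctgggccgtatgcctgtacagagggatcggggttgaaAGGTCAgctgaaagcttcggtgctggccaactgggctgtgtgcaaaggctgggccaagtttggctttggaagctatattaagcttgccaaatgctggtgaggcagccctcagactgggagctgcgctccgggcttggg
The window of the first start held no AGGTCA on either strand, and that of the second held 1. Over all RefSeq promoter windows of the same length, 16.255% of 32851 held AGGTCA on either strand, as did 19.643% of the 56 windows of the members, from 10 of the 35 member genes with a window. A match is a run of letters and not a measured site.

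Among the retinoic acid receptors, *Rara* stood highest under DEX. This gene (RAR alpha, chr11:98927818-98974942, plus strand) measured 8.58, 10.6 and 13.7 normalised counts in control, 16.5, 17.1 and 29.3 under DEX, 9.13, 11.3 and 9.78 at 1 week and 9.24, 8.43 and 5.59 at 4 weeks. The 3 DEX pools lay above all 9 other libraries. DEX was 1.87-fold above control (log2 difference 0.90, SE 0.33), with an adjusted p of 0.535 by limma. The difference between 4 weeks and DEX was -1.40 (SE 0.33, 95% interval -2.09 to -0.71) and missed the threshold in limma (adjusted p = 0.0592). It passed in 4 of 10 other settings, with adjusted p from 0.00211 in DESeq2 to 0.069 over the 10, and on leaving out pool 2 or pool 3 of the 1-week group (0.0441 and 0.0401).

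*Rarb* and *Rarg* gave no such pattern. *Rarb* measured 6.54 to 17.3 and *Rarg* 1.33 to 9.89 normalised counts, with all groups overlapping. *Rarb* shares 34.1% of its exon length with *Top2b* on the opposite strand, so reads of both genes may be mixed.

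The thyroid hormone receptors were among the most abundant members and no comparison of either had an unadjusted p under 0.05. *Thra* measured 25.6, 41.2 and 102 normalised counts in control, 36.4, 52.7 and 58.8 under DEX, 38.1, 45.9 and 82.2 at 1 week and 52.9, 32.8 and 42.7 at 4 weeks. Control pool 3 and 1-week pool 3 were the 2 highest. *Thrb* ranged from 35.3 to 99.3, and its log2 difference between 4 weeks and DEX was 0.45 with a 95% interval of -0.26 to 1.16.

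*Vdr*, the vitamin D receptor, measured 19.4, 29.3 and 20.6 normalised counts in control, 23.4, 19 and 15.5 under DEX, 22, 26.1 and 26.1 at 1 week and 39.1, 27.5 and 29.4 at 4 weeks. The lowest pool at 4 weeks lay above the highest DEX pool. The difference was 0.73 on the log2 scale (SE 0.26), and it did not pass in limma (adjusted p = 0.292) or in any of the 10 other settings, where the adjusted p was 0.112 to 0.352.

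**Figure D3:**
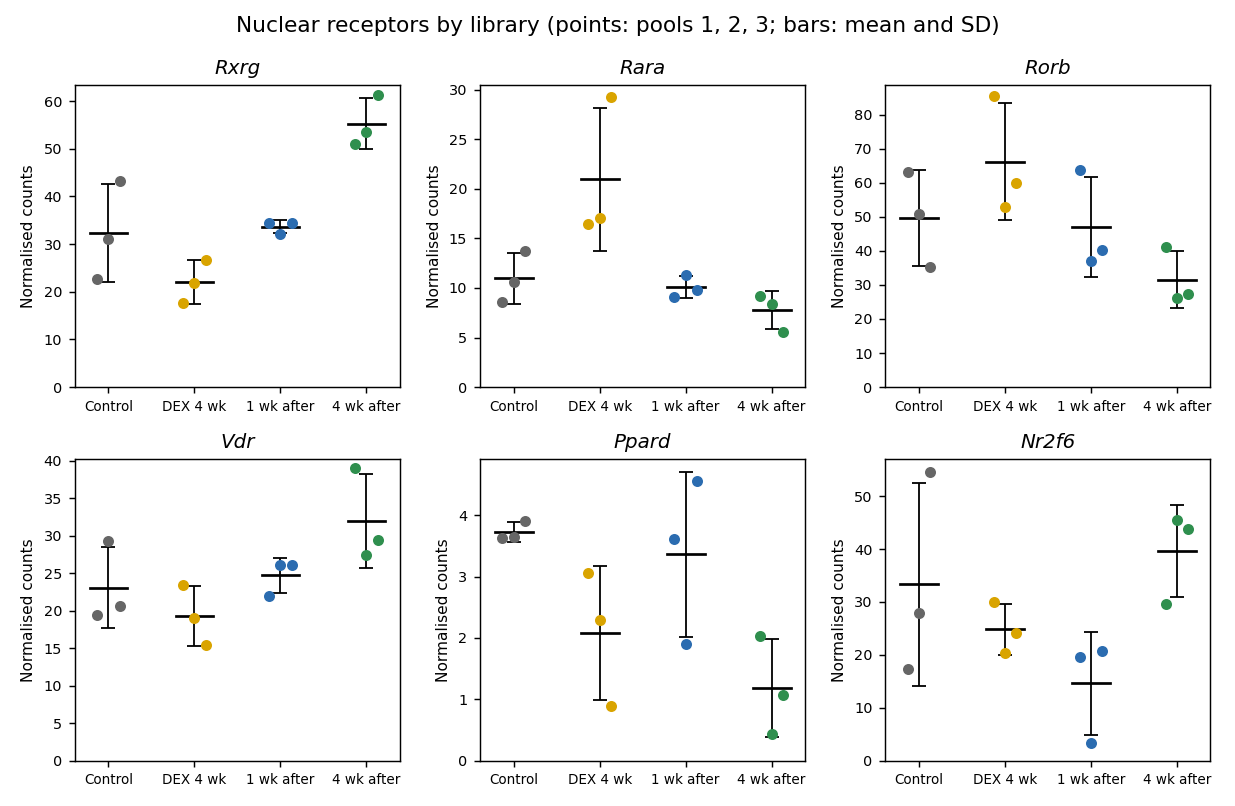
Normalised counts of 6 receptors in each library (points are pools 1 to 3, bars the mean and SD of 3 pools, axes from 0). *Rxrg* is highest in the 3 pools at 4 weeks, *Rara* in the 3 DEX pools, and 1-week pool 2 of *Nr2f6* lies far below the others at 3.44.

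Among the lipid sensors, *Ppard*, the widely expressed fatty acid receptor, was lowest at 4 weeks. It measured 3.62, 3.65 and 3.91 normalised counts in control, 3.06, 2.29 and 0.897 under DEX, 3.61, 1.91 and 4.56 at 1 week and 2.03, 0.438 and 1.08 at 4 weeks. Every control pool lay above every DEX pool and every 4-week pool. The log2 difference of 4 weeks from control was -1.79 (SE 0.60), with an adjusted p of 0.651 by limma and 0.0636 to 0.782 over the 10 other settings. *Pparg*, the adipocyte receptor, measured 0.393, 0.942 and 0.326 in control and 0.166, 0.0818 and 0 under DEX, all 3 DEX pools being at or under 3 reads.

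The oxysterol receptors differed less. *Nr1h2* measured 29.2 to 62.6 and *Nr1h3*, LXR alpha, 5.54 to 13 normalised counts, and the interval for *Nr1h2* at 4 weeks against DEX ran from -0.83 to 0.26 on the log2 scale. *Nr1h4*, the bile acid receptor, reached at most 2.39 and *Ppara* at most 2.24 normalised counts in any library. *Nr1i3*, the xenobiotic receptor CAR, measured 12.3 to 24.7, but 74.9% of its exon length is shared with *Tomm40l* on the opposite strand, which measured 17.9 to 35.6, so its level is uncertain.

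*Esr1* was the leading steroid receptor of the set. It measured 144, 225 and 112 normalised counts in control, 232, 208 and 118 under DEX, 133, 138 and 191 at 1 week and 219, 247 and 150 at 4 weeks. The 4 groups overlapped throughout, and the log2 difference of DEX from control was 0.22 with a 95% interval from -0.47 to 0.90. *Pgr*, the progesterone receptor, measured 1.78 to 4.34, and *Esr2* did not exceed 1.14.

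Of the oestrogen-related receptors, which act in energy metabolism without a known natural hormone, *Esrra* measured 6.37, 7.77 and 12.1 normalised counts in control, 12.7, 13 and 18.5 under DEX, 9.22, 9.56 and 12 at 1 week and 6.01, 9.3 and 12.3 at 4 weeks. All DEX pools lay above all other libraries, the closest by 12.7 to 12.3. The log2 difference of DEX from control was 0.78 (SE 0.35, limma, adjusted p = 0.703). *Esrrg* measured 5.74 to 20.1 and *Esrrb* at most 1.01, both with overlapping groups.

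*Rorb*, the ROR of neural and endocrine cells (chr19:18930605-19111196, minus strand), measured 63.3, 50.8 and 35.2 normalised counts in control, 85.6, 53 and 59.8 under DEX, 63.8, 37 and 40.4 at 1 week and 41.1, 26.2 and 27.2 at 4 weeks. The highest pool at 4 weeks was below the lowest DEX pool. That difference was -1.07 on the log2 scale (SE 0.30, 95% interval -1.71 to -0.42) and missed the threshold in limma (adjusted p = 0.133), while it passed in 4 of 10 other settings (adjusted p from 0.0068 to 0.163 over the 10). *Rora*, its broadly expressed relative, measured 21.9 to 75.4 with a log2 difference of -0.09.

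Of the orphan receptors, *Nr2f6* measured 17.4, 28 and 54.5 normalised counts in control, 29.9, 20.4 and 24.2 under DEX, 19.7, 3.44 and 20.7 at 1 week and 29.7, 45.4 and 43.8 at 4 weeks. Pool 2 of the 1-week group was far below the rest. In that library *Ocel1*, which shares 54.4% of the exon length of *Nr2f6* on the opposite strand, was also at its lowest, 6.63 against 18.3 to 46.8 elsewhere. The log2 difference of 1 week from control was -1.40 (limma, adjusted p = 1.0), and without that pool -0.56. *Nr2f2*, COUP-TFII, measured 5.23 to 17.9 normalised counts, *Nr2c1* 3.91 to 15.4 and *Nr2c2* 15 to 61.9, and no comparison of these 3 had an unadjusted p under 0.05. *Nr2c2* shares 30.7% of its exon length with *Mrps25* on the opposite strand, and *Thra* 5.7% with *Nr1d1*.

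*Nr5a1* and *Nr0b1*, whose products work as an activator and its repressor in the gonadotroph and the adrenal, were both present. *Nr5a1* measured 17.2, 21.2 and 17.3 normalised counts in control, 10.7, 20.8 and 28.4 under DEX, 16.2, 18 and 8.67 at 1 week and 19.4, 20 and 24.5 at 4 weeks. *Nr0b1* (DAX1) measured 3.3, 4.36 and 4.46 in control, 1.24, 3.35 and 2.13 under DEX, 6.27, 3.31 and 4.11 at 1 week and 3.51, 4.82 and 3.43 at 4 weeks. *Nr5a1* spread most among the DEX pools, which overlapped all other groups, and the 2 lowest values of *Nr0b1* were DEX pools. For *Nr0b1* the log2 difference of 1 week from DEX was 1.05 (SE 0.45, limma, adjusted p = 0.398). *Nr0b2* (SHP), which like DAX1 lacks a DNA-binding domain, ranged from 0 to 3.14, and *Nr6a1*, the germ cell factor, from 2.93 to 11.3.

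The cofactors, ligand enzymes and targets around the receptors were read from 4 lists holding 75 different genes. None of the 15 coactivators, 12 corepressors, 22 tested ligand supply genes and 25 tested receptor targets passed the F test by adjusted p in limma. At an unadjusted p under 0.05 the counts were 1, 0, 4 and 4, against 9.21% of all genes. The median log2 difference between 4 weeks and DEX was 0.51 for ligand supply, -0.03 for targets, -0.26 for coactivators and -0.27 for corepressors, beside 0.00 for all genes.

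*Aldh1a2*, which makes retinoic acid, measured 33.8, 38.9 and 56.4 normalised counts in control, 44.4, 39.8 and 51.9 under DEX, 50.2, 46.1 and 51.6 at 1 week and 108, 83.3 and 83.5 at 4 weeks. The 3 pools at 4 weeks were the highest of the 12. The log2 differences of 1.01 from DEX (limma, adjusted p = 0.0671) and 1.11 from control (limma, adjusted p = 0.394) did not pass. The first passed in 3 of 10 other settings (adjusted p from 0.00232 to 0.083 over the 10) and in 3 of 12 fits that left out 1 library, without control pool 3 (0.0356) or 1-week pool 2 or 3 (0.0461 and 0.0445), and the second in 2 of 10 (0.012 to 0.489). *Aldh1a2* is also 1 of the 8 stem and folliculostellate markers used here.

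Of the receptor targets, *Tgm2*, a transglutaminase induced by retinoic acid, measured 13, 21.8 and 13.2 normalised counts in control and 29.6, 27.6 and 114 under DEX (log2 difference 1.54, limma, adjusted p = 0.321). These 2 groups did not overlap, and the difference did not pass in limma. It passed in 1 of 10 other settings (adjusted p from 0.0276 to 0.373 over the 10). *Tgm2* measured 16.5 to 28.8 at 1 week and 30.1 to 41.3 at 4 weeks. The 4-week pools also lay above all control pools, and that difference did not pass in limma or in any of the 10 other settings. The coactivator *Ppargc1a* measured 5.55, 7.77 and 4.04 under DEX and 19.8, 18 and 8.67 at 1 week (log2 difference 1.37, limma, adjusted p = 0.152), its relative *Ppargc1b* 1.91 to 4.09 under DEX and 5.07 to 6.06 in control, and the corepressors *Gps2* and *Sin3a* 25.2 to 54.1 and 12.7 to 27.6 over all libraries.

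**Figure D4:**
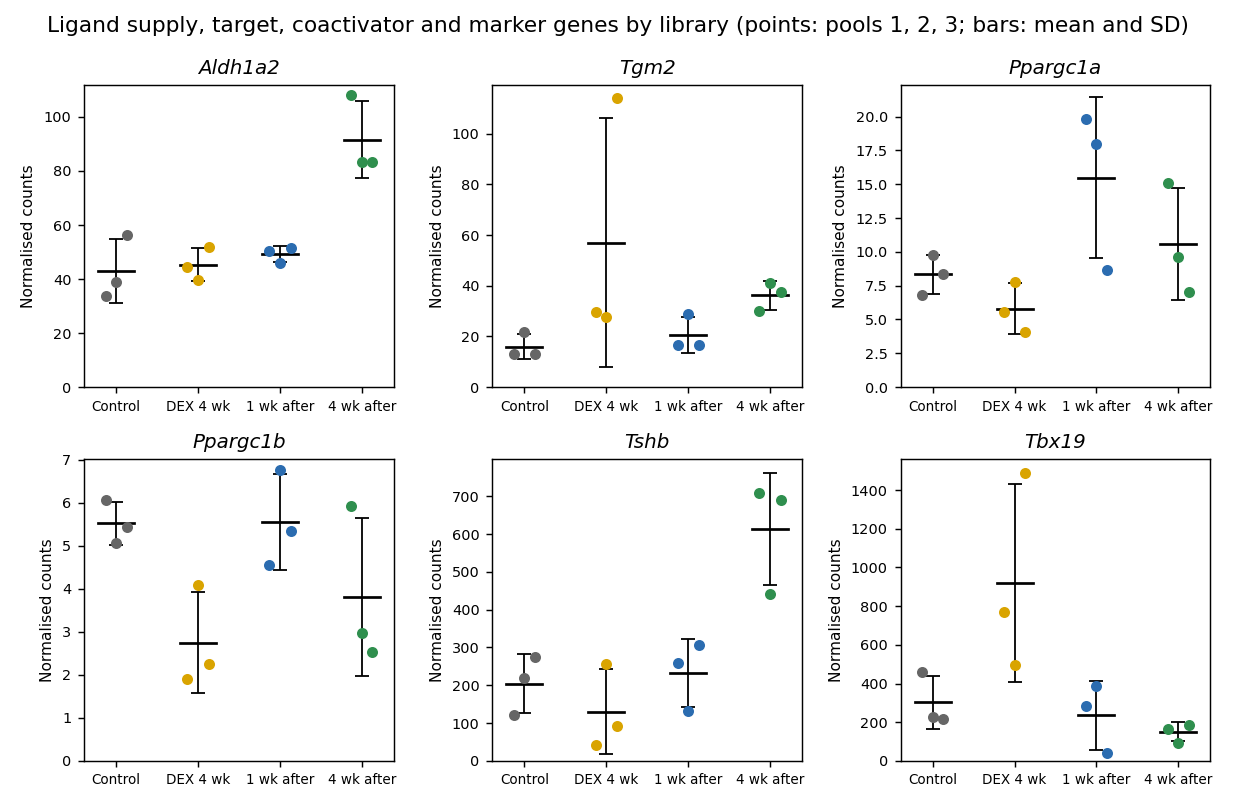
Normalised counts in each library (points are pools 1 to 3, bars the mean and SD of 3 pools, axes from 0) of *Aldh1a2*, the target *Tgm2*, the coactivators *Ppargc1a* and *Ppargc1b*, the thyrotroph marker *Tshb* and the corticotroph marker *Tbx19*. *Aldh1a2* and *Tshb* have their 3 highest pools at 4 weeks after withdrawal, whereas *Tbx19* is highest under DEX.

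Markers of other pituitary cells also differed in the comparison in which *Rxrg* passed. *Tshb*, the thyrotroph hormone subunit, measured 41.8, 257 and 91.3 normalised counts under DEX and 709, 442 and 689 at 4 weeks, and 3 of the 5 thyrotroph markers (*Tshb*, *Trhr* and *Cga*) were higher in all 4-week pools than in all DEX pools. The summed thyrotroph markers ranged from 960 to 3364 under DEX and from 5260 to 6547 at 4 weeks, beside 2745 to 7482 in control, with none of the 5 at 0 throughout. Most of this sum was *Cga*, at 909 to 3267 under DEX, 4531 to 5846 at 4 weeks and 2617 to 7199 in control. *Cga* is also a gonadotroph marker and is counted in both lists, so the sum is not specific to thyrotrophs. All 8 endothelial markers were likewise higher at 4 weeks, with sums of 6.63 to 12.6 under DEX and 87.2 to 163 at 4 weeks, as were 7 of 8 pericyte and fibroblast, 5 of 9 macrophage, 4 of 8 stem and folliculostellate, 2 of 4 somatotroph, 2 of 6 gonadotroph, 1 of 4 lactotroph, 3 of 5 erythroid and 3 of 7 proliferation markers. Of all genes tested, 19.5% did not overlap in this comparison, higher or lower. None of the 5 melanotroph and 4 pituicyte markers was higher in this way, with *Rxfp4* (melanotroph) and *Hoxb5* (lactotroph) at 0 in every library.

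The corticotroph markers themselves split. *Tbx19* measured 769, 498 and 1490 normalised counts under DEX and 166, 94.4 and 188 at 4 weeks, and *Avpr1b* and *Neurod1* were also lower in all 4-week pools, while *Pomc* and *Pcsk1* were higher. *Rara*, *Rorb*, *Esrra* and *Rxra* had, like *Tbx19*, all DEX pools above all 4-week pools. *Rxrg*, *Vdr*, *Nr1h3*, *Nr2f1* and *Nr0b1* had all 4-week pools above all DEX pools, *Nr2f1* on few reads. So had *Pomc* and *Pcsk1*, and so had the markers of other cells counted as higher above. Together these receptors are the 9 members (25.7%) without overlap, against 19.5% of all genes. Over time *Rxrg* and *Pomc* differed. Mean *Pomc* was 159270 at 1 week and 59322 at 4 weeks, and mean *Rxrg* was 33.7 and 55.2. The sort relied on the *Pomc* promoter, and *Pomc* itself was at 4241 to 8521 under DEX against 34562 to 74260 in control. The part of cell makeup in the receptor differences was not tested.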

How the data were processed

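RNA of FACS-sorted *Pomc*-eGFP cells was sequenced in 4 groups of 3 pools. All 12 libraries were assigned to groups from the labels. Per the labels and the study's methods, the authors trimmed reads with Trim Galore 0.6.5, aligned them to GRCm38 with STAR 2.7.1a and counted read pairs of mapping quality 20 or more with featureCounts 2.0.0 on the reverse strand, although the cDNA and tagmentation kits named in the labels do not mark strand. Each value the authors deposited is a signal for 1 gene, namely CPM computed on an edgeR effective library size, with scaling factors of 0.702 to 1.21. They had been taken for plain CPM when the tests were planned, and the planned limma test was kept. All 271881 values above 0 were whole multiples of 1 read within 0.001 read (100%), which gave 7719894 to 12848078 reads per library. Floors reflect nothing beyond counting error.

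Genes above 0.1 in at least 3 libraries (24736) were tested on log2(value + 0.1) with limma 3.58.1 in R 4.3.3 (lmFit, eBayes with trend), all 12 libraries in 1 fit without covariates, with Benjamini-Hochberg adjustment over all genes and a threshold of 0.05. A fold on this scale understates changes of scarce genes. Alternatives were other pseudocounts, filters and scaling, a replicate block, array weights, only the 2 groups compared, single libraries left out, and edgeR 4.0.16 and DESeq2 1.42.0 on the recovered reads. The edgeR test called 165 genes over the 4 groups and 214 between 4 weeks and DEX. The limma and edgeR steps were tested on simulated data.

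Levels between genes were compared per kilobase of merged exons (GENCODE M21, GRCm38). Promoter windows came from RefSeq (GRCm38.p6), and 35 of the 37 members had at least 1. All 37 members were accounted for. From the lists of cofactors, ligand supply and targets, genes past a test and the 2 with the smallest F test p of each list were named, and from the marker lists the sums and genes that bear on a result. Some genes of these lists are not reported here. The members and lists were chosen with earlier results of these data known. The replicates are pools of mice, and p-values measure the spread between pools.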

Additional observations from a re-analysis of the deposited data

How the results depend on the processing

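The number of receptors called over the 4 groups was 0 in limma and 3 with array weights and 2 with DESeq2. For 4 weeks against control it was 0, and 1 with array weights. For 4 weeks against DEX it was 1, and 2 with the filter at 1 normalised count, 3 with array weights, 3 with DESeq2 and 3 with only the 2 groups in the fit, and it ran from 0 to 2 when single libraries were left out. The other comparisons gave 0 receptors in every setting run, leave-one-out included. *Rxrg* between 4 weeks and DEX passed in all 10 settings but in 6 of 12 leave-one-out fits. The receptor differences with an unadjusted p under 0.05 in limma kept their sign in these settings and in the leave-one-out fits, and the smaller ones, such as that of *Rxrb*, were not followed.

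The pool number as a replicate block gave 2 receptors between 4 weeks and DEX (*Rorb* with *Rxrg*, adjusted p = 0.0354 for *Rorb* in limma) and 0 in the other comparisons. The labels link same-numbered pools by the number alone, and whether these pools shared anything else was not tested. Deviations of same-numbered pools correlated at -0.294 to 0.397 (median 0.0559 over 18 pairs). Those of other pairs correlated at -0.273 to 0.382 (median -0.0145 over 36 pairs). Of the 12 libraries, 8 correlated best with a pool of their own number, although fewer pairs shared a number than did not.

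Over all genes, the calls between 4 weeks and DEX were 216 in limma, 214 in edgeR, 655 in DESeq2, 1300 with array weights and 737 with only the 2 groups. Over the 4 groups they were 78, 165 in edgeR, 734 in DESeq2 and 1069 with array weights. The causes of these differences were not tested. With 3 pools per group, receptors under 1 normalised count rested on a few reads and had the widest intervals.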

Other observations

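Of the retinoid genes in the ligand supply list, 2 were singled out after their values were seen. *Stra6*, the receptor that takes up retinol from its carrier protein, measured 7.24, 0.353 and 0.435 normalised counts in control, 11.3, 7.36 and 17.6 under DEX, 0.76, 4.08 and 0.889 at 1 week and 1.94, 0.985 and 2.62 at 4 weeks. All DEX pools were above all other libraries, the closest by 7.36 to 7.24. *Aldh1a1*, another retinaldehyde dehydrogenase, measured 4.48, 4.36 and 10.4 in control, 10.2, 11 and 10.8 under DEX, 7.03, 7.14 and 9.56 at 1 week and 19.5, 16.1 and 13.1 at 4 weeks, its 3 highest values. By adjusted p in limma, 0 ligand supply genes passed for DEX against control and 0 for 4 weeks against control. Of all genes tested, pools did not overlap for 12.8% and 13.2% in these comparisons. *Rdh10*, also of this list, went the other way, at 17.5 to 34.1 in control and 7.74 to 12.3 under DEX.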
